A study of Homo sapiens with 12 samples.

Results

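The 37 genes of the human mitochondrial genome were followed across 12 RNA-seq libraries of NUGC-4 cells, a line derived from a diffuse gastric cancer. They are the rows of the deposited count table whose symbol begins with MT-, 37 of 60623 genes in all, and they fall into 13 protein-coding, 2 ribosomal RNA and 22 transfer RNA genes. Cells labelled wild type (WT), kept in the same serum-containing medium, were harvested after 24 h in 4 groups of 3 libraries: the combination of 1 µM IN10018 and 1 µM crizotinib, 1 µM crizotinib alone, 1 µM IN10018 alone, and a control whose vehicle the labels do not name. IN10018 inhibits focal adhesion kinase (FAK), while crizotinib blocks the receptor tyrosine kinases MET, ALK and ROS1. The study set out to compare the combination with each drug given alone. It used 1 cell line. Whether replicate libraries stem from independent cultures is not stated in the labels. The p-values below therefore measure the spread between these libraries, which may be technical.

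The mitochondrial genome is a small circle that is copied into long transcripts from both of its strands by a polymerase of its own. Most of the tRNA genes sit between the rRNA and protein-coding genes and are cut out of the transcript, which frees the mRNAs and rRNAs on either side. The 13 proteins are all subunits of the respiratory chain and ATP synthase, the 2 rRNAs belong to the mitochondrial ribosome, and the 22 tRNAs serve translation inside the organelle. Every other protein of the organelle, including its transcription and RNA-processing enzymes and most respiratory-chain subunits, is encoded in the nucleus.

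Libraries held 13691844 to 20489708 counted reads. Levels are given below as CPM, a gene's counts scaled to a common library size with edgeR's TMM factors, which ran from 0.918 to 1.07, and changes as log2 fold changes ± standard error (SE) from 1 edgeR fit over all 12 libraries. A gene is called when its p-value, adjusted over the 17096 tested genes by the Benjamini-Hochberg method, is under 0.05. Of the labelled cell type's 8 epithelial markers, KRT8 (1120 to 2366 CPM) and KRT18 (532 to 1188 CPM) were high, EPCAM lay between 15.5 and 21.2 CPM, KRT19 had 0 reads in every library, and CLDN7 and ELF3 stayed at or under 0.208 CPM. The labels' description field speaks of adipogenic differentiation for all 12 libraries. Of 8 adipocyte markers, ADIPOQ, CIDEA and LPL had 0 reads throughout, and LEP and CIDEC stayed at or under 0.0695 CPM. FABP4 lay between 60.2 and 129 CPM, and PLIN1 and PLIN4 reached at most 3.47 and 4.38 CPM. Among 6 fibroblast markers, COL3A1 reached 5069 to 6654 CPM and COL1A2 at most 0.228 CPM, and among 6 immune markers CD14 reached 33.3 CPM and CD3E had 0 reads.

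The mitochondrial share of reads was lower in every combination library than in any control or IN10018 library, and it varied widely among the crizotinib libraries. All 37 genes together took 6.99, 4.28 and 6.62% of reads in combination libraries 1, 2 and 3, 13.3, 5.21 and 9.46% in crizotinib libraries 1, 2 and 3, 12.3, 12.7 and 11.5% in the IN10018 libraries and 11.2, 11 and 11.9% in the control libraries. Crizotinib library 1 thus lay above all control libraries, and crizotinib library 2 lay inside the range of the combination. In RNA from a whole culture, fewer mitochondria or cells with many of them and less mitochondrial RNA per cell cannot be told apart, and a share also moves when other RNAs in the library change.

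The 3 classes were uneven in size and did not fall equally. The 13 protein-coding genes took 4.61, 2.69 and 4.48% of reads in the combination libraries, 9.96, 3.40 and 6.88% with crizotinib, 8.58, 8.94 and 8.45% with IN10018 and 8.46, 8.22 and 8.88% in the control libraries, so the combination averaged 3.93 ± 1.07% and control 8.52 ± 0.334% (SD, n = 3 each). The 2 rRNA genes took 2.35, 1.57 and 2.11% in the combination libraries, 3.26, 1.78 and 2.55% with crizotinib, 3.70, 3.70 and 2.96% with IN10018 and 2.70, 2.72 and 2.98% in control libraries. The 22 tRNA genes took 0.0257, 0.0139 and 0.0250% in the combination libraries, 0.0567, 0.0204 and 0.0361% with crizotinib, 0.0473, 0.0485 and 0.0474% with IN10018 and 0.0461, 0.0509 and 0.0494% in control libraries. In each class the combination did not overlap with control, and the highest crizotinib library was crizotinib 1 and the lowest was crizotinib 2. The ratio of the highest to the lowest library of a group was 2.92 for crizotinib and 1.71 for the combination in the protein-coding class, 1.83 and 1.5 in the rRNA class, and 2.78 and 1.85 in the tRNA class. Within the control group the same ratios were 1.08, 1.10 and 1.10.

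**Figure D1:**
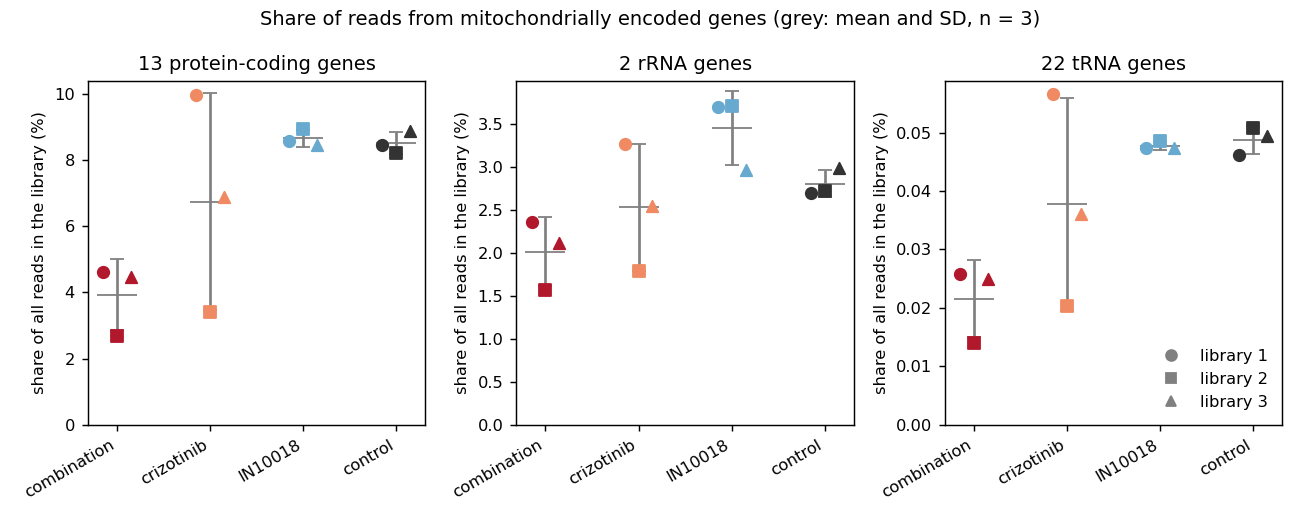
Share of all reads in each library (y axis, percent) that fell on the 13 protein-coding, 2 rRNA and 22 tRNA genes, by group, with the grey line and bar giving the mean and SD of 3 libraries. The 3 combination libraries sit below the 3 control libraries in every panel, and the crizotinib libraries spread from 3.40 to 9.96% in the protein-coding panel.

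Of the 13 protein-coding genes, 12 were called lower and 0 higher in the combination than in control, where 29.1% of all tested genes were called lower and 33.7% higher. Their median log2 fold change was -1.40, against 0.10 over all tested genes. Both rRNA genes were called lower, and of the 21 tRNA genes tested 11 were called lower and 1 higher. The remaining tRNA gene, MT-TA, had 58 reads over all libraries and did not pass the filter on low counts. Against IN10018 alone the combination gave 12 of 13, 2 of 2 and 13 of 21 called lower, and 0 in any class called higher by edgeR, where 27.5% of all tested genes were called lower and 29.7% higher. Without combination 2 the tRNA count against IN10018 was 8, where 23.6% of all tested genes were called lower, and the calls of MT-CO3 and MT-ND6 against IN10018 were lost in 4 and 5 of the 12 fits that left out 1 library. The 2 comparisons share the combination libraries. Scaling to library totals alone, without TMM factors, left 10 of the 13 called against control, MT-CO3 and MT-ND6 being lost, and shifted the median of all genes to 0.27. The calls over all genes were then 3763 lower and 7113 higher, against 4968 and 5761 with TMM.

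MT-ATP8 and MT-ND4L, the shortest protein-coding genes of the mitochondrial genome, fell most in the combination. Each shares its end with the gene that follows it in the same mRNA, and their sequences are shown because a read over the shared bases can belong to either gene. In GENCODE 29 (build GRCh38, plus strand), MT-ATP8 lies at chrM:8366-8572 and MT-ND4L at chrM:10470-10766, and capitals mark the last 46 bases of MT-ATP8 that are also the start of MT-ATP6, and the last 7 bases of MT-ND4L that are also the start of MT-ND4.
MT-ATP8: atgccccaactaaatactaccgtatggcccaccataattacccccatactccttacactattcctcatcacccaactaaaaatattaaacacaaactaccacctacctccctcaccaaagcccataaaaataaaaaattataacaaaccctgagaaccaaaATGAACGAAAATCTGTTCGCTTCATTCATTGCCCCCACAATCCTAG
MT-ND4L: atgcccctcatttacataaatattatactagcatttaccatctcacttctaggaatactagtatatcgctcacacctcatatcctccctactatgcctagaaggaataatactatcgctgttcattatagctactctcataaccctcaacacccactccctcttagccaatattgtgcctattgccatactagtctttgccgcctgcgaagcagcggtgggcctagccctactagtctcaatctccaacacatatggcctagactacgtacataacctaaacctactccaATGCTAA
The shared stretch is 22.2% of MT-ATP8 and 2.36% of MT-ND4L. How the authors' counting assigned reads that touch both genes is not given in the sources used here, so the levels of MT-ATP8 and MT-ATP6 are less certain than those of genes that stand alone.

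Both mitochondrially encoded subunits of ATP synthase (complex V) fell in the combination. MT-ATP8 had 56.8, 26.5 and 73.7 CPM in combination libraries 1 to 3, 431, 44.2 and 154 CPM in crizotinib libraries 1 to 3, 511, 496 and 564 CPM with IN10018 and 448, 481 and 567 CPM in control. Every combination library lay below every control library, as for 33.2% of all tested genes. The crizotinib libraries also lay below every control library, as for 2 of the 13 protein-coding genes. The share of all tested genes for crizotinib is not given here. The log2 fold change in the combination against control was -3.25 ± 0.58 (edgeR adjusted p = 0.000377). MT-ATP6, which forms part of the proton channel, had 1788, 766 and 1999.8 CPM in the combination libraries, 5911, 1256 and 3713 CPM with crizotinib and 5362, 5233 and 6090.3 CPM in control, and changed by -1.87 ± 0.42 on the log2 scale in the combination (edgeR adjusted p = 0.00165). Reads of MT-ATP8 per read of MT-ATP6 stood at 0.0318, 0.0347 and 0.0368 in the combination, 0.0730, 0.0352 and 0.0415 with crizotinib, 0.0968, 0.0898 and 0.104 with IN10018 and 0.0835, 0.0919 and 0.0931 in control. The counted reads of MT-ATP8 thus fell by a larger proportion in the combination than those of MT-ATP6. How reads over the shared bases were assigned is not known.

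The 7 mitochondrially encoded subunits of complex I, the NADH dehydrogenase, had log2 fold changes from -2.13 to -0.14 in the combination. MT-ND4L had 1285, 706 and 1366 CPM in combination libraries 1 to 3, 4581, 975 and 2441 CPM with crizotinib, 4488, 4949 and 4505 CPM with IN10018 and 4885, 4685 and 5132 CPM in control, and it changed by -2.13 ± 0.39 on the log2 scale in the combination (edgeR adjusted p = 0.000454). MT-ND2 had 1630.1, 699.7 and 1689 CPM in the combination, 5446, 1088 and 3206 CPM with crizotinib and 5225, 4980.5 and 5823 CPM in control, and changed by -2.0 ± 0.42 on the log2 scale in the combination (edgeR adjusted p = 0.00119). In both genes the combination libraries lay wholly below control, and the lowest of the 12 libraries was combination 2. MT-ND4, MT-ND1 and MT-ND3 followed, with log2 fold changes of -1.66 ± 0.36, -1.40 ± 0.32 and -1.06 ± 0.24 and mean levels of 3425 ± 1100.1, 2274 ± 777 and 517 ± 99.4 CPM in the combination against 10813 ± 719.9, 5987 ± 383 and 1077 ± 46.2 CPM in control (SD, n = 3 each).

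MT-ND5 and MT-ND6, which lie beside each other on opposite strands near the end of the coding region, moved least. MT-ND5 had 4898, 4224 and 4712 CPM in the combination libraries, 6125, 4393 and 4936 CPM with crizotinib, 5037, 5117 and 5259 CPM with IN10018 and 5032, 5068 and 5169.9 CPM in control. The combination libraries lay below control without overlap, as 33.2% of all tested genes did, but the difference was small and did not pass the test (log2 fold change -0.14 ± 0.12, edgeR adjusted p = 0.304). MT-ND6, the 1 protein-coding gene on the minus strand, had 983, 853 and 849 CPM in the combination, 1499, 809 and 1031 CPM with crizotinib and 1172, 1176 and 1209.7 CPM in control, and changed by -0.41 ± 0.17 on the log2 scale in the combination (edgeR adjusted p = 0.0452). That call lies close to the threshold and was lost in 9 of the 12 fits that left out 1 library. The library kit keeps strand, but whether the authors' counting used it is not given in the sources used here; without it, reads of MT-ND6 and of transcripts from the opposite strand cannot be told apart.

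The 3 mitochondrially encoded subunits of cytochrome c oxidase (complex IV) and the cytochrome b of complex III also fell. MT-CO1, the mRNA with the most reads, had 14133, 7076 and 13742 CPM in the combination, 34434, 9339 and 24932 CPM with crizotinib, 31539, 33040.5 and 30644 CPM with IN10018 and 32928, 29766 and 34562 CPM in control, with a log2 fold change of -1.48 ± 0.35 in the combination (edgeR adjusted p = 0.00236). MT-CO2 fell by 1.31 on the log2 scale (SE 0.30) and MT-CO3 by 0.60 (SE 0.21), and MT-CYB had a log2 fold change of -0.89 ± 0.21. The MT-CO3 call was lost without combination library 2 (log2 fold change -0.48, edgeR adjusted p = 0.0818). MT-CYB averaged 2446 ± 324 CPM in the combination and 4545 ± 85.9 CPM in control (SD, n = 3 each), and its groups did not overlap.

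Per kilobase of gene, the highest control levels among the mRNAs belonged to MT-CO1 at 21024 ± 1581 CPM per kb and MT-ND4L at 16501 ± 754 CPM per kb, and the lowest to MT-ND6 at 2259 ± 39.1 and MT-ATP8 at 2408 ± 297 CPM per kb (SD, n = 3). In the combination MT-ATP8 stood at 253 ± 115, MT-ND4L at 3767 ± 1213, MT-ND5 at 2545 ± 192 and MT-CO1 at 7555 ± 2572 CPM per kb, while MT-ND5 stood at 2809 ± 39.5 CPM per kb in control. Across the 13 genes the change in the combination against control had a Spearman rho of 0.489 with the order along the genome, 0.368 with gene length, 0.38 with GC content and -0.302 with the control level per kb. These are descriptions over 13 genes that share transcripts and libraries.

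**Figure D2:**
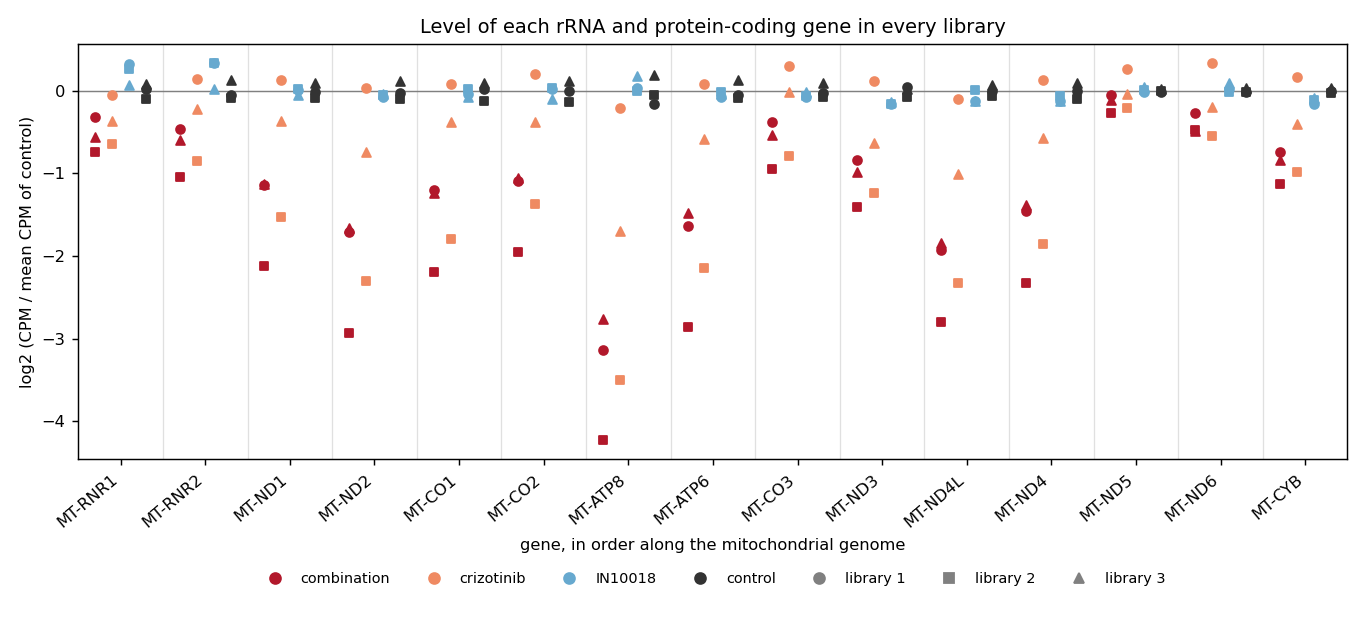
Level of each rRNA and protein-coding gene in every library, as log2 of its CPM over the mean CPM in control (y axis), with genes in order along the mitochondrial genome (x axis), colour for group and marker shape for library number. Combination 2 (dark red square) is the lowest library for most genes, crizotinib 1 (orange circle) lies near or above control for most, and MT-ND5 varies least.

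The 3 crizotinib libraries stood far apart, and few mitochondrial genes were called with crizotinib alone. edgeR called 0 of 13 protein-coding genes, 0 of 2 rRNA genes and 1 of 21 tRNA genes lower against control, where 17.6% of all tested genes were called lower (1948 lower and 4827 higher with library totals, against 3014 and 3421 with TMM). An unadjusted p under 0.05 was reached by 2, 1 and 4 genes of the 3 classes, and by 8379 of all 17096 tested genes. limma-voom called 2, 0 and 4 lower, where it called 3223 of all 17096 genes lower. DESeq2 called 0, 1 and 1 lower, where it called 3676 of 19020 genes lower. The order crizotinib 1, then 3, then 2 held for all 13 protein-coding genes. Crizotinib 1 lay above all control libraries for 8 of them, within their range for 3, and below it for 2, MT-ATP8 and MT-ND4L. Crizotinib 2 lay within the range of the combination for 12 of the 13, MT-ND6 being the exception. Between its highest and lowest library the crizotinib group spanned 9.76-fold in MT-ATP8, 5.01-fold in MT-ND2, 4.70-fold in MT-ND4L, 3.69-fold in MT-CO1, 2.12-fold in MT-CO3 and 1.39-fold in MT-ND5. Without crizotinib 1, 11 protein-coding, 1 rRNA and 10 tRNA genes were called lower against control, where 20.0% of all genes tested without it were; without crizotinib 2, edgeR called 0 of the 36, where 10.7% of all genes tested without it were called lower and 10.1% higher. Without a filter on low counts, 9, 1 and 6 genes of the 3 classes were called lower, where 8.25% of all genes with reads were, and with the library number as a block over all 12 libraries 3, 1 and 4 were, where 20.6% of all tested genes were.

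With IN10018 alone edgeR called 0 of the 36 tested genes in either direction, where 0.503% of all tested genes were called. An unadjusted p under 0.05 was reached by 0 protein-coding, 0 rRNA and 2 tRNA genes, and by 1886 of all 17096 tested genes. DESeq2 and limma-voom called 0 of the mitochondrial genes. Over all genes DESeq2 called 73 lower and 126 higher of 14357, and limma-voom 24 lower and 40 higher of 17096. The log2 fold changes of the 13 protein-coding genes against control lay between -0.15 and 0.07, with adjusted p-values of 0.855 to 0.995. The rRNA genes MT-RNR1 and MT-RNR2 had log2 fold changes of 0.22 ± 0.15 and 0.24 ± 0.21, and their groups overlapped. The 21 tested tRNA genes ran from -0.39 to 1.31, and 4 of them were higher in every IN10018 library than in any control library while 1 was lower, as 14% and 18.9% of all tested genes were. Singled out after the values were seen, MT-TS1, a serine tRNA, had 26, 47 and 47 reads with IN10018 and 17, 20 and 9 reads in control, a change of 1.31 ± 0.57 on the log2 scale (edgeR adjusted p = 0.408). MT-TD, the aspartate tRNA, had 42, 70 and 83 reads with IN10018 and 29, 31 and 20 reads in control, a change of 1.23 ± 0.41 (edgeR adjusted p = 0.239). In the fit on the 6 IN10018 and control libraries alone, 2 rRNA and 2 tRNA genes were called higher, where 8.34% of all tested genes were, and 1 tRNA gene lower, where 5.58% were.

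The combination was not separated from crizotinib alone by the test over all 12 libraries. edgeR called 0 of the 36 genes, as it called 0.0117% of all tested genes. An unadjusted p under 0.05 was reached by 11 protein-coding, 0 rRNA and 7 tRNA genes, and by 3697 of all 17096 tested genes. limma-voom called 0 mitochondrial genes, where it called 2 lower and 0 higher of 17096. DESeq2 called 1, a tRNA gene, where it called 5 lower and 16 higher of 13692. The log2 fold change was below 0 in all 13 protein-coding genes, from -2.0 ± 0.55 for MT-ATP8 to -0.16 ± 0.12 for MT-ND5, and the adjusted p-values ran from 0.213 to 0.402. Libraries of the same number deviated together in these groups, although combination 3 also did so with crizotinib 1. With the number as a block within the 6 libraries, an alternative chosen after seeing the data, 10 protein-coding, 0 rRNA and 7 tRNA genes were called lower, where 11.0% of all tested genes were; MT-ATP6 had a blocked log2 fold change of -1.10 (edgeR adjusted p = 8.97e-05) and MT-ND2 one of -1.09 (edgeR adjusted p = 0.000147). The number was taken as a block from the residuals of these same libraries, so these p-values are not independent of that choice. The block fitted over all 12 libraries called 0. Without crizotinib 2, the lowest of its group, 12, 1 and 10 genes of the 3 classes were called lower, where 17.3% of all tested genes were. Without crizotinib 2 and combination 2 together 12, 1 and 8 were, where 14.4% of all tested genes were. Without a filter on low counts 11, 1 and 8 were, where 2.72% of all genes with reads were. In each pair of libraries with the same number the combination was the lower for all MT reads together: 6.99, 4.28 and 6.62% with the combination against 13.3, 5.21 and 9.46% with crizotinib alone.

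The interaction asks whether crizotinib changed a gene by another amount in the presence of IN10018 than in its absence. It was called by edgeR for 0 of the 36 genes, as for 0.0702% of all tested genes. An unadjusted p under 0.05 was reached by 4 protein-coding, 1 rRNA and 6 tRNA genes, and by 1367 of all 17096 tested genes. DESeq2 and limma-voom called 0 of the mitochondrial genes. Over all genes DESeq2 called 18 lower and 46 higher of 15689, and limma-voom 1 lower and 7 higher of 17096. The estimate was below 0 for all 13 protein-coding genes, from -2.07 ± 0.76 for MT-ATP8 to -0.17 ± 0.17 for MT-ND5. Without crizotinib 2 it was called for 9 protein-coding, 1 rRNA and 5 tRNA genes, where 2.37% of all tested genes had a call below 0, and without a filter on low counts for 8, 1 and 10, where 0.348% did. Without crizotinib 2 and combination 2 together it was called for 10, 1 and 8, where 5.71% of all tested genes had a call below 0. Averaged over both levels of IN10018, crizotinib lowered 10 protein-coding, 2 rRNA and 11 tRNA genes, where 29.8% of all tested genes were called lower, and raised 1 tRNA gene, MT-TR, where 35.6% were called higher. The MT-TR call was lost in 7 of the 12 fits that left out 1 library. MT-ND5, MT-ND6 and MT-CO3 were not called.

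The genes also shifted relative to each other. Within the reads of the 13 protein-coding genes, MT-ND5 made up 11.4, 16.5 and 11.1% in the combination, 6.16, 13.6 and 7.21% with crizotinib, 5.76, 5.65 and 6.05% with IN10018 and 5.53, 5.94 and 5.34% in control. MT-CO3 made up 11.7, 13.4 and 10.7% in the combination, 8.16, 11.8 and 9.53% with crizotinib and 7.10, 7.34 and 7.22% in control. MT-ATP8 made up 0.132, 0.104 and 0.174% in the combination, 0.434, 0.137 and 0.225% with crizotinib and 0.492, 0.563 and 0.585% in control. For these 3 genes every combination and every crizotinib library lay outside the control range, on 1 side of it, and combination 2 and crizotinib 2 lay farthest from control in their groups. MT-ND2, MT-ATP6, MT-ND4L, MT-ND4, MT-CO1 and MT-ND1 took a smaller share in every combination library than in any control library, and MT-ND3, MT-ND6 and MT-CYB a larger one. In the combination MT-CO2 overlapped with control, at 7.68, 7.15 and 8.0% against 7.75, 7.56 and 7.92% in control. With crizotinib it made up 8.17, 8.47 and 7.96%, above every control library. MT-ND2 and MT-ND4L also took a smaller share in every crizotinib library than in any control library, and MT-ND6 a larger one. MT-ND1, MT-CO1, MT-ATP6, MT-ND3, MT-ND4 and MT-CYB overlapped between crizotinib and control.

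With the summed reads of the 13 mRNAs as the library size, so that each change is relative to the mitochondrial mRNA total, 2 protein-coding genes were called lower and 2 higher in the combination than in control. MT-ATP8 (-2.0 ± 0.39, edgeR adjusted p = 0.00134) and MT-ND4L (-0.85 ± 0.32, edgeR adjusted p = 0.0243) fell beyond the total on the log2 scale. MT-ND5 (1.21 ± 0.37, edgeR adjusted p = 0.00905) and MT-ND6 (0.96 ± 0.34, edgeR adjusted p = 0.0183) rose relative to it. On this scale 0.252% of all tested genes were called lower and 73.6% higher, with a median of 1.46. The same scale called 0.175% lower and 71.4% higher in the combination against IN10018, 0.468% lower and 74.5% higher for crizotinib averaged over IN10018, and 0.0175% lower for crizotinib alone against control.

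**Figure D3:**
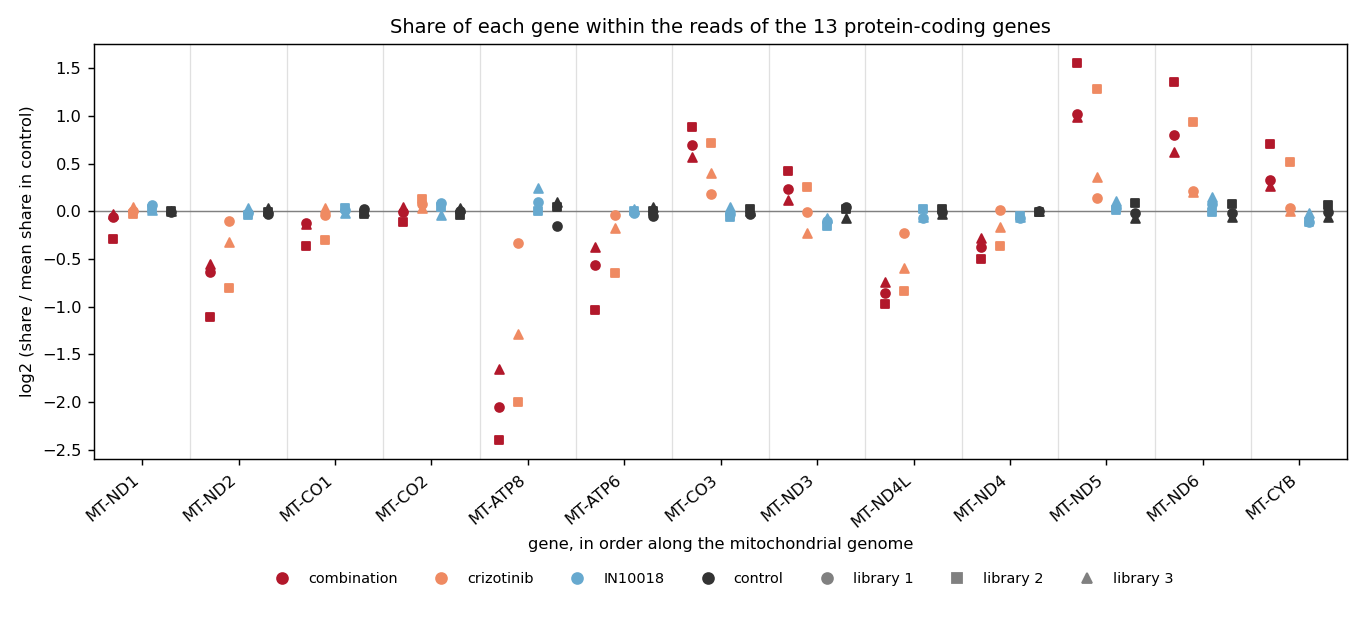
Share of each gene within the reads of the 13 protein-coding genes, as log2 of the share over its mean in control (y axis), for every library, with genes in order along the mitochondrial genome (x axis). MT-ATP8, MT-ND2, MT-ATP6 and MT-ND4L lie below 0 and MT-CO3, MT-ND5 and MT-ND6 above 0 in the combination, with crizotinib 2 close to the combination and the IN10018 libraries close to control.

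The 2 rRNAs, which open the transcript of the heavy strand, fell less than most mRNAs. MT-RNR1, the RNA of the small ribosomal subunit (chrM:648-1601), had 3399, 2532 and 2877 CPM in the combination, 4088, 2715 and 3298 CPM with crizotinib, 5308, 5093 and 4456 CPM with IN10018 and 4296, 3959.8 and 4483 CPM in control, and changed by -0.53 ± 0.15 on the log2 scale in the combination (edgeR adjusted p = 0.00650). MT-RNR2, the RNA of the large subunit (chrM:1671-3229), had 18609, 12418 and 17048 CPM in the combination, 28452, 14188 and 22066 CPM with crizotinib, 32394, 32444 and 25959 CPM with IN10018 and 24716, 24265 and 28036 CPM in control, and changed by -0.68 ± 0.21 on the log2 scale in the combination (edgeR adjusted p = 0.0123). Both genes were lower in every combination library than in any control library, but without combination 2 the MT-RNR2 call was lost (log2 fold change -0.54, edgeR adjusted p = 0.0512), leaving 1 of 2. Reads of the 2 rRNAs per read of the 13 mRNAs stood at 0.510, 0.583 and 0.471 in the combination, 0.327, 0.524 and 0.371 with crizotinib, 0.431, 0.414 and 0.350 with IN10018 and 0.319, 0.331 and 0.336 in control. The combination and the IN10018 libraries all lay above the control libraries in this ratio, and crizotinib 1 lay among the control libraries.

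The tRNA genes split by place and by direction. The sequences of MT-TL1, whose level fell most among the tRNA genes with the most reads, and of MT-TR, the 1 tRNA gene called higher, are shown from GENCODE 29 (GRCh38, plus strand) at chrM:3230-3304 and chrM:10405-10469; no base is set in capitals.
MT-TL1: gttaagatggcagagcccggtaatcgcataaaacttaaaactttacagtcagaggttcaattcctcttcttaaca
MT-TR: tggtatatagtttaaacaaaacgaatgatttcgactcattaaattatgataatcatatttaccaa
MT-TL1, the leucine tRNA that follows MT-RNR2 directly, had 14.2, 3.89 and 17.3 CPM in the combination, 64.1, 11.3 and 34.4 CPM with crizotinib, 83.3, 84.7 and 64 CPM with IN10018 and 72.4, 65.6 and 73.5 CPM in control. The combination and crizotinib libraries lay below every control library, and the log2 fold change in the combination was -2.57 ± 0.51 (edgeR adjusted p = 0.000713). Of the 21 tested tRNA genes, 11 lay below control without overlap in the combination, as 33.2% of all tested genes did, and 5 with crizotinib. The share of all tested genes for crizotinib is not given here. MT-TR, the arginine tRNA between MT-ND3 and MT-ND4L, had 9.52, 5.21 and 14.5 CPM in the combination, 8.30, 6.62 and 9.23 CPM with crizotinib, 6.68, 6.47 and 6.82 CPM with IN10018 and 4.64, 7.20 and 4.68 CPM in control. Its groups overlapped, and its rise in the combination (0.83 ± 0.29, edgeR adjusted p = 0.0226) was lost without control 1, control 3 or combination 3, and in the fit on the 6 libraries alone (log2 fold change 0.78, edgeR adjusted p = 0.0509).

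The other tRNA genes named by read number and calls fell in the combination. MT-TP, the proline tRNA and the one with the most reads, had 84.7, 50.1 and 88.7 CPM in the combination, 209.9, 68.5 and 146 CPM with crizotinib and 173, 168 and 181 CPM in control, and changed by -1.22 ± 0.29 on the log2 scale in the combination (edgeR adjusted p = 0.00267). MT-TN, the asparagine tRNA, had a log2 fold change of -1.76 ± 0.32, MT-TC, the cysteine tRNA, one of -1.64 ± 0.27, and MT-TV, the valine tRNA between the 2 rRNA genes, one of -1.97 ± 0.46. These 3 had adjusted p-values from edgeR of 0.000441, 0.000237 and 0.00215. Singled out after the values were seen, MT-TW, the tryptophan tRNA, had the lowest estimate at -3.31 ± 0.50 from 5, 1 and 2 reads in the combination libraries and 21, 37 and 26 reads in the control libraries. MT-TF, the phenylalanine tRNA and the 1 mitochondrial gene called lower with crizotinib alone (-0.92 ± 0.27, edgeR adjusted p = 0.0195), rested on 13, 15 and 13 reads with crizotinib and 23, 28 and 24 reads in control; this call was lost without control 1, control 2 or crizotinib 2. MT-TH, the histidine tRNA, was likewise added after its values were seen and has the most reads after MT-TP, MT-TN, MT-TC and MT-TL1. It had 20.5, 14.6 and 15.1 CPM in the combination and 10.6, 15.2 and 8.57 CPM in control, which overlapped, and it was not called (log2 fold change 0.55 ± 0.29, edgeR adjusted p = 0.107).

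By position along the genome, all 10 tested tRNA genes that lie before MT-CO1 were called lower in the combination than in control, with log2 fold changes from -3.31 to -0.82 and a median of -1.76. Of the 11 that lie after it, 1 was called lower (MT-TP) and 1 higher (MT-TR), with a median of -0.15. Over all tested genes 29.1% were called lower and 33.7% higher in this comparison. The place of the split at MT-CO1 was chosen after the values were seen, and the split was not tested. With crizotinib alone the same groups of tRNA genes had medians of -0.75 and 0.23 against control, with 1 and 0 called lower, where 17.6% of all tested genes were. In the combination against IN10018 they had medians of -1.70 and -0.44, with 9 and 4 called lower, where 27.5% of all tested genes were. By strand, 6 of the 14 tested tRNA genes on the plus strand and 5 of the 7 on the minus strand were called lower in the combination against control, where 29.1% of all tested genes were. All of these but MT-TP lie before MT-CO1, so the strand counts and the counts by place hold the same genes. A difference between the strands was not tested. As for MT-ND6, whether the authors' counting used strand is not given in the sources used here. The counts do not separate a mature tRNA from a precursor that still holds its neighbours, and the tRNA class rests on 1907 to 10117 reads a library.

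**Figure D4:**
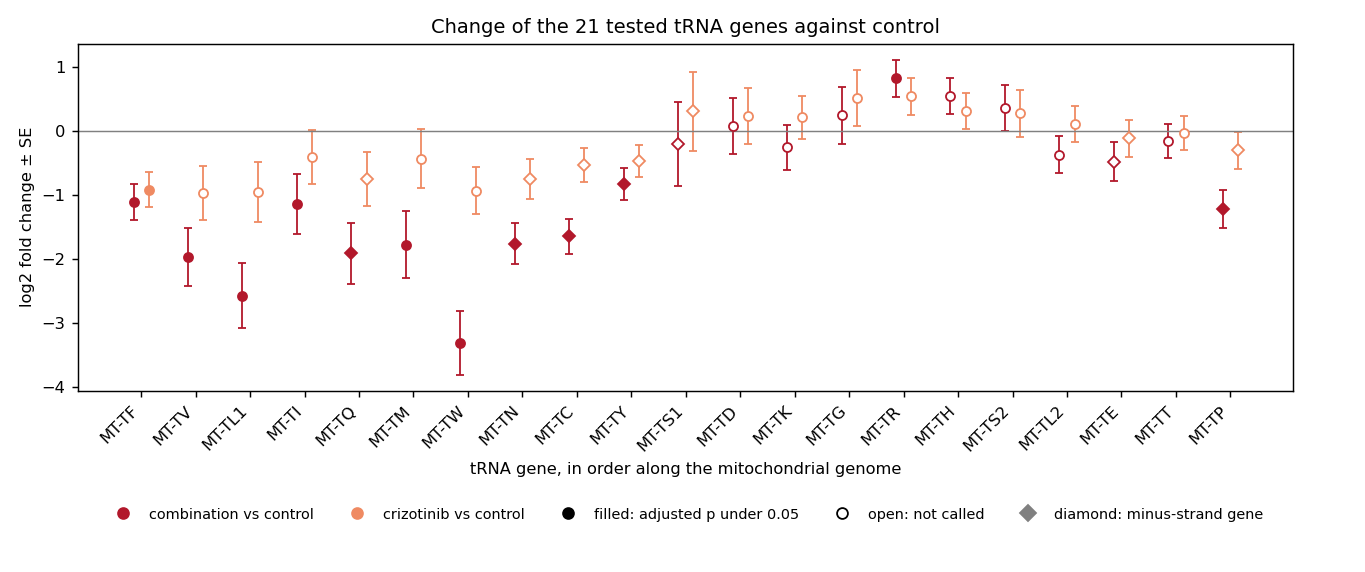
Log2 fold change against control ± SE (y axis) of the 21 tested tRNA genes in order along the mitochondrial genome (x axis), for the combination (dark red) and for crizotinib alone (orange), with filled markers for an edgeR adjusted p under 0.05 and diamonds for genes on the minus strand. In the combination the 10 genes from MT-TF to MT-TY lie below 0 and are filled, and of the 11 genes from MT-TS1 on, MT-TR and MT-TP are filled.

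Some mitochondrial genes have near-identical copies in the nuclear genome, and reads can be split between them. Of 407 annotated copies, 126 had reads, and 3 copies that lie beside each other on chromosome 1 held 97.6% of them. MTND2P28 (chr1:629640-630683, GRCh38, plus strand) matches MT-ND2 over 1042 bases with 17 mismatches and held 188258 reads over the 12 libraries, 25.2% as many as MT-ND2 itself. MTATP6P1 (chr1:633696-634376) matches MT-ATP6 over 681 bases with 10 mismatches and held 136238 reads, 17.0% as many as MT-ATP6. MTCO1P12 (chr1:631074-632616) matches MT-CO1 at 98.7% identity and held 9236 reads, 0.189% as many. The first 120 bases of MT-ATP6 (chrM:8527-8646) and of MTATP6P1 (chr1:633696-633815) are shown because they differ at 1 base, set in capitals in each.
MT-ATP6: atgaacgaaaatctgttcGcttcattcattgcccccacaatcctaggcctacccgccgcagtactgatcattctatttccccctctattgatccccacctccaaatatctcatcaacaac
MTATP6P1: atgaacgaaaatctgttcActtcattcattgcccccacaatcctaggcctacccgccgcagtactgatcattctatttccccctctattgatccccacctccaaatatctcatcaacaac
Reads of MTATP6P1 per read of MT-ATP6 stood at 0.245, 0.257 and 0.234 in the combination, 0.163, 0.260 and 0.218 with crizotinib, 0.170, 0.143 and 0.137 with IN10018 and 0.163, 0.147 and 0.160 in control. The 3 combination libraries thus lay above the 3 control libraries in this ratio, and crizotinib 2 lay highest of its group. For MTND2P28 and MT-ND2 the ratio was 0.248, 0.250 and 0.265 in the combination and 0.290, 0.233 and 0.220 in control, which overlapped. Summing each gene with its copies before the fit, an alternative chosen after seeing the data, changed no call among the genes described here.

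Nuclear genes that act on mitochondrial RNA or DNA moved in both directions. Of 77 such genes on 6 lists, 38 were called lower and 19 higher in the combination than in control, with a median log2 fold change of -0.26, and 26 were called lower and 9 higher with crizotinib alone. All 77 were tested, and the background is that given above, 29.1% lower and 33.7% higher in the combination and 17.6% lower and 20.0% higher with crizotinib alone. Among 11 transcription genes, 3 fell and 4 rose in the combination. TFAM, which packages mitochondrial DNA and opens its promoters, had 74.6, 62.9 and 85.4 CPM in the combination, 107, 73.2 and 110.3 CPM with crizotinib and 150.0, 143 and 153 CPM in control, and changed by -1.0 ± 0.15 on the log2 scale in the combination (edgeR adjusted p = 0.000127). TFB2M, the initiation factor that melts the promoter, had 8.57, 7.37 and 8.69 CPM in the combination, 20.7, 7.53 and 12.6 CPM with crizotinib and 27.7, 25.8 and 27.1 CPM in control, and changed by -1.71 ± 0.25 on the log2 scale in the combination (edgeR adjusted p = 0.000129). Both fell in every combination library relative to every control library. POLRMT, the mitochondrial RNA polymerase, rose to 111 ± 30.4 CPM in the combination, against 61.5 ± 0.623 CPM in control (SD, n = 3 each; log2 fold change 0.85 ± 0.21), and TOP1MT, the mitochondrial type I topoisomerase, rose to 242 ± 54.7 CPM, against 106 ± 3.87 CPM in control. TEFM, the elongation factor, averaged 9.61 ± 1.76 CPM in the combination and 10.6 ± 1.71 CPM in control and was not called (edgeR adjusted p = 0.456).

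The list of RNA stability and decay genes was the most one-sided of the 6, with 6 of 8 called lower and 0 higher in the combination and a median log2 fold change of -0.63. Over all tested genes 29.1% were called lower and 33.7% higher, for this list and the RNA-processing list below. LRPPRC, which binds and stabilises mitochondrial mRNAs, had 241, 235 and 296 CPM in the combination, 294, 300.2 and 296 CPM with crizotinib and 406, 394 and 403 CPM in control, and changed by -0.64 ± 0.10 on the log2 scale in the combination (edgeR adjusted p = 0.000149). Its partner SLIRP averaged 22.7 ± 1.17 CPM in the combination and 22.3 ± 1.91 CPM in control and was not called (edgeR adjusted p = 0.859). PNPT1, the polynucleotide phosphorylase, fell (-0.93 ± 0.13), as did ANGEL2 (-1.11 ± 0.18). Of 14 RNA-processing genes, 8 fell and 2 rose: FASTKD5, needed to process transcripts that no tRNA bounds, had a log2 fold change of -1.19 ± 0.16, FASTKD2, a factor of large ribosomal subunit assembly, one of -0.58 ± 0.11, and FASTK, which is needed for MT-ND6 mRNA, one of 1.38 ± 0.25.

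Among 17 genes that modify mitochondrial tRNA and rRNA, 8 fell and 8 rose in the combination against control. Over all tested genes 29.1% were called lower and 33.7% higher, for this list and the others of this paragraph. MRM1, a methyltransferase of MT-RNR2 (1.31 ± 0.20), and QTRT1, a subunit of the enzyme that inserts queuine (1.46 ± 0.25), rose, and MTO1, which modifies the wobble base of several tRNAs (-0.96 ± 0.17), fell. Of 17 genes of mitochondrial DNA replication and upkeep, 7 fell and 4 rose, with DNA2, a nuclease and helicase, at -1.32 ± 0.14, RRM2B, a subunit of ribonucleotide reductase, at -1.42 ± 0.22, and POLG2, the accessory subunit of the mitochondrial DNA polymerase, at 0.62 ± 0.12. Of 10 nuclear regulators of mitochondrial gene expression, 6 fell and 1 rose: NRIP1, a corepressor, had a log2 fold change of -1.73 ± 0.19, GABPA, a transcription factor of nuclear genes for mitochondria, one of -1.42 ± 0.25, and ESRRA, an orphan receptor that promotes such genes, one of 1.0 ± 0.14.

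The nuclear subunits of the same respiratory complexes were more often called higher than lower. Of 73 tested, 10 were called lower and 42 higher in the combination than in control, with a median log2 fold change of 0.45, and 2 were called lower and 32 higher with crizotinib alone. Over all tested genes 29.1% were called lower and 33.7% higher in the combination, and 17.6% lower and 20.0% higher with crizotinib alone. In complex I, 25 of 37 nuclear subunits were called higher and 4 lower in the combination, while 6 of the 7 mitochondrial ones were called lower. NDUFB1 had 61.5, 82 and 55.8 CPM in the combination, 41.7, 58.5 and 46.6 CPM with crizotinib and 30.8, 31.3 and 35 CPM in control, and changed by 1.04 ± 0.15 on the log2 scale in the combination (edgeR adjusted p = 0.000125). NDUFA11 had a log2 fold change of 2.03 ± 0.26 at a low level, 5.29, 6.46 and 3.43 CPM in the combination and 1.12, 1.27 and 1.28 CPM in control. In complex III, 5 of 9 rose and 1 fell, with UQCRB at 0.57 ± 0.10 and UQCR11 at 1.21 ± 0.22. In complex IV, 4 of 11 rose and 1 fell: COX4I1 had 402, 575 and 336 CPM in the combination, 232, 436 and 297 CPM with crizotinib and 189, 185 and 198 CPM in control, and changed by 1.20 ± 0.21 on the log2 scale in the combination (edgeR adjusted p = 0.000311). COX5B had a log2 fold change of 1.20 ± 0.23. In ATP synthase, 8 of 16 rose and 4 fell, with ATP5PO at 1.14 ± 0.18 and ATP5F1E at 0.93 ± 0.17. For COX4I1 and NDUFB1, crizotinib 2 was again the crizotinib library nearest the combination.

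**Figure D5:**
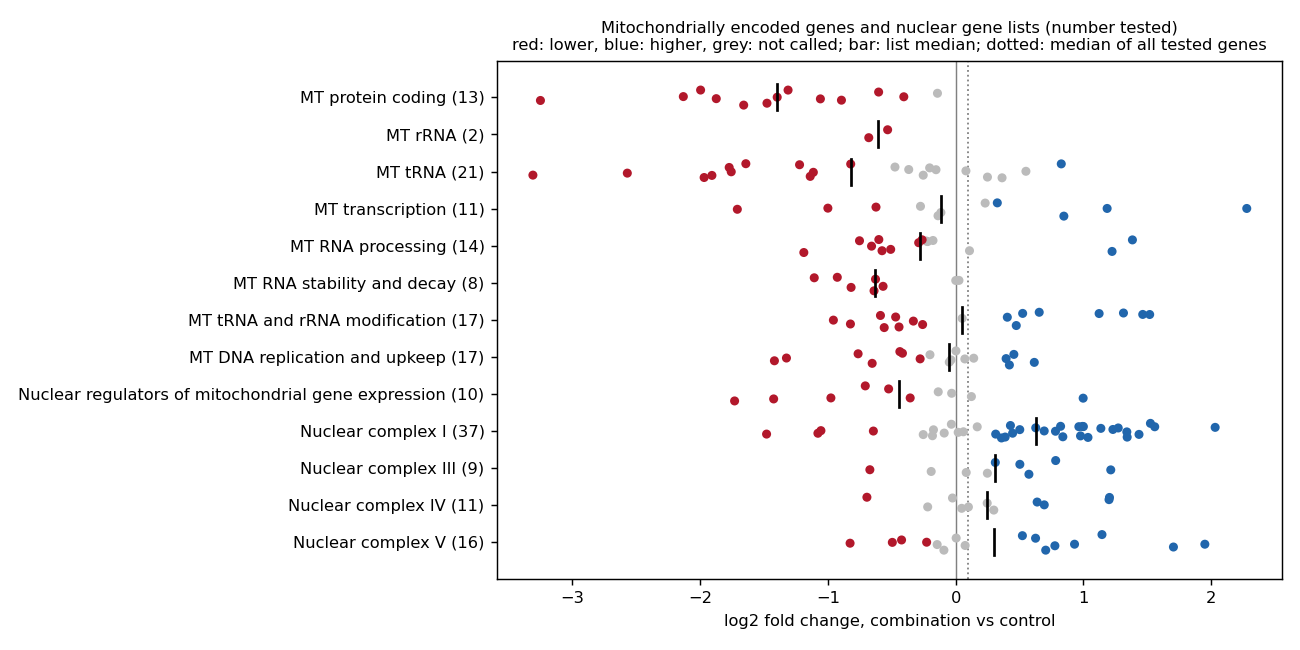
Log2 fold change in the combination against control (x axis) of every tested gene of the 3 mitochondrial classes and of 10 lists of nuclear genes (y axis, number tested in brackets), red for called lower, blue for called higher and grey for not called, with a bar at each list's median and a dotted line at the median of all tested genes. The mitochondrial mRNAs centre on -1.40 and the nuclear subunits of complex I on 0.63.

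Other properties of the libraries also differed between the groups, not all of them in step with the mitochondrial share. The first principal component of all tested genes, which held 67.2% of the variance, placed the combination libraries at 56.3, 91.3 and 37.8, the crizotinib libraries at -4.61, 57.8 and 10.3, the IN10018 libraries at -32.8, -30.6 and -36.2 and the control libraries at -54.6, -41.9 and -52.8, so crizotinib 2 stood among the combination libraries there too. Cytosolic ribosomal protein genes took 5.86, 6.71 and 5.35% of reads in the combination, 4.32, 6.06 and 4.77% with crizotinib, 3.45, 3.36 and 3.66% with IN10018 and 3.57, 3.56 and 3.69% in control. Long noncoding RNAs took 4.0, 3.93 and 3.30% in the combination, 3.08, 3.22 and 3.11% with crizotinib and 1.91, 2.28 and 2.03% in control. With IN10018 they took 2.78, 2.96 and 2.45%, above every control library. Across the crizotinib libraries they varied little, unlike the mitochondrial share. Summed levels of the 8 epithelial markers, of which KRT19 was at 0, ran from 2490 to 3770 CPM in the combination, 1800 to 3310 CPM with crizotinib, 1650 to 1800 CPM with IN10018 and 1870 to 1940 CPM in control. KRT8 and KRT18 make up nearly all of that sum: CDH1 averaged 2.85 CPM in the combination and 5.21 CPM in control, and EPCAM 17.3 CPM in the combination and 18.6 CPM in control. The 8 adipocyte markers, 3 of them at 0, summed to 113 to 144 CPM in the combination and 67.5 to 72.0 CPM in control. Most of that sum was FABP4, which averaged 112 CPM in the combination and 71.3 CPM in control. The 6 immune markers summed to 30.2 to 35.8 CPM in the combination, 28.6 to 34.8 CPM with crizotinib and 17.5 to 22 CPM in control, almost all of it CD14. Nuclear-retained RNAs took 2.47, 2.41 and 1.87% of reads in the combination, 1.72, 1.82 and 1.82% with crizotinib and 0.870, 1.14 and 1.04% in control. Nuclear rRNA and structural RNA, with 6 of its 7 rows in the table at 0, summed to 51.2, 95.5 and 38.8 CPM in the combination, 51.4, 95.1 and 31.3 CPM with crizotinib and 22.8, 28.9 and 43 CPM in control, highest in combination 2 and crizotinib 2. The part of these differences in the mitochondrial results was not tested.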

How the data were processed

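RNA was extracted with TRIzol and made into libraries with a kit that keeps strand, per the labels' protocols. The deposited table holds whole-number counts of reads per gene, made by the authors; the submitters' processing notes name Trimmomatic, FastQC, HISAT2, featureCounts and DESeq2 and the build hg38 (GRCh38). Versions, strand setting and the treatment of reads that fit several places are not given in the sources used here.

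Counts were analysed in edgeR 4.0.16 (R 4.3.3) with TMM factors, the filterByExpr filter by group, 1 robust quasi-likelihood fit over 12 libraries and Benjamini-Hochberg adjustment over 17096 genes, with an adjusted p under 0.05 as the threshold. SEs are the absolute log2 fold change over the root of F. The 7 contrasts read from that fit were 5 pairs of groups, the interaction, and crizotinib averaged over both IN10018 levels. The procedure was tested on simulated data. No library's counts duplicated another's. Groups came from the labels' treatment field, and replicate numbers from the sample titles. Coordinates and sequences came from GENCODE 29 on GRCh38, which matched 37 of 37 genes.

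Named genes were all mRNA and rRNA genes, the 4 tRNA genes with the most reads and the next 2 by reads among those called in any comparison, nuclear list members with the smallest p among those called (3 a list, or 2 a complex), 6 transcription and stability genes whatever their p, and the 3 nuclear copies with most reads. The members, lists and rule were chosen with earlier results of these data known. Alternatives were other scalings, filters, tools (DESeq2 1.42.0 and limma 3.58.1), a replicate block, fewer libraries, and 2 chosen after seeing the data. Same-numbered combination and crizotinib libraries deviated together (correlations of residuals 0.218, 0.624 and 0.275, each over 0.1; those of different numbers ran from -0.527 to 0.422, the highest for combination 3 with crizotinib 1), so that the numbers were taken to pair these 2 groups.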

Additional observations from a re-analysis of the deposited data

How the results depend on the processing

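Of 3507 gene values under the alternatives, 3245 kept their direction and side of the threshold, 59 fell short of it, 178 newly passed it and 25 reversed; 90 changes of sign with no call in either fit are among the 3245. Counts below are of protein-coding, rRNA and tRNA genes called lower unless stated, and the cause of each change was not tested.

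For crizotinib against control, no filter on low counts gave 9, 1 and 6 with 1 tRNA gene higher, the replicate block over 12 libraries 3, 1 and 4, limma-voom 2 protein-coding and 4 tRNA, DESeq2 1 rRNA, and DESeq2 size factors or scaling without mitochondrial genes 2 tRNA each. Over all 17096 genes the last 2 scalings called 3511 and 3444 lower, and no filter called 3692 of 35679 higher. For the combination against crizotinib, no filter gave 11, 1 and 8, the replicate block within the 6 libraries 10, 0 and 7, and DESeq2 1 tRNA. The interaction without a filter gave 8, 1 and 10. No filter also gave tRNA genes called higher: 2 in IN10018 and 2 in the combination against control, and 1 in the combination against IN10018. Over all 35679 genes it called 304, 5829 and 4835 higher in these comparisons. With only the 6 libraries compared, IN10018 against control had 2 rRNA genes higher and 1 tRNA gene lower and 2 higher, and the combination against control 0 tRNA higher. Over all genes the IN10018 fit called 1314 higher and 879 lower of 15750, and the combination fit 5220 higher of 15990. Library totals gave 2 tRNA genes higher in the combination against control, where 7113 of all 17096 genes were called higher. Without crizotinib 2 and combination 2, the combination against crizotinib gave 12, 1 and 8 (2475 of 17236 genes lower in all, against 2 of 17096 in the fit of all libraries) and the interaction 10, 1 and 8 (984 in all, against 2). In the same fit crizotinib against control gave 2 tRNA lower and 1 higher (3165 lower and 3114 higher in all). IN10018 against control gave 2 tRNA higher (629 in all), and the combination against IN10018 1 tRNA higher (4872 in all).

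Leaving out 1 library at a time gave 0 to 11, 0 to 1 and 0 to 10 for crizotinib against control (highest without crizotinib 1), 0 to 12, 0 to 1 and 0 to 10 for the combination against crizotinib, and 0 to 9, 0 to 1 and 0 to 5 for the interaction (both highest without crizotinib 2). For the combination against control rRNA ran from 1 to 2 (1 without combination 2) and tRNA higher from 0 to 2, against IN10018 tRNA ran from 8 to 15 (8 without combination 2) and tRNA higher from 0 to 1, and for crizotinib averaged tRNA higher ran from 0 to 1, with 0 in 7 of the 12 fits. The 2 tRNA genes higher against control came without control 2, where 5312 of all 17583 genes were higher. The 1 higher against IN10018 came without combination 2, where 3600 of all 17509 genes were higher.

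Relative to the mitochondrial mRNA total, the median of all genes moved to 1.46 in the combination against control. Crizotinib against control then had 0 tRNA lower. The combination against control had 2, 0 and 2 lower and 2, 1 and 8 higher, against IN10018 2, 0 and 4 lower with 2 protein-coding and 3 tRNA higher, and crizotinib averaged 3, 0 and 4 lower with 3 protein-coding and 7 tRNA higher. For the combination against control, against IN10018 and crizotinib averaged, in this order, the log2 fold change reversed to 0.72, 0.73 and 0.59 in MT-CO3, 0.26, 0.37 and 0.20 in MT-ND3, 1.21, 1.16 and 0.92 in MT-ND5, 0.96, 0.89 and 0.69 in MT-ND6, 0.45, 0.52 and 0.36 in MT-CYB, 0.81, 0.55 and 0.43 in MT-RNR1, 0.64, 0.36 and 0.34 in MT-RNR2, and 0.069, 0.11 and 0.13 in MT-TP, and in MT-CO2 to 0.012 for crizotinib averaged.

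Same-numbered crizotinib and control libraries had residual correlations of 0.0387, 0.156 and 0.109, so the numbers were not taken to pair them. Precision is limited by 3 libraries a group, and for the tRNA genes by 1907 to 10117 reads a library.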
